A study of Mus musculus with 18 samples.

Results

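Genes of the early secretory pathway, which brings proteins into the endoplasmic reticulum and packs them into transport vesicles, were followed in mouse liver across 5 groups. They were chosen by name, with earlier results of these data known. The names are the translocon and coat names Sec followed by a digit, Ssr, Spcs, Tmed, Cop (without the COP9 signalosome names), Lman and Ergic. The choice gave 56 of the 12019 genes of the authors' deposited table. All 56 have a mean of at least 10 normalized counts over the groups and 51 have at least 100. Of the 56, 17 passed an adjusted p under 0.05 against the control in at least 1 intervention (30.4%) and 39 in none, against 21.4% of all tested genes called in at least 1.

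Livers came from C57BL/6J mice, 21 weeks old at the start, after 8 weeks of free feeding (6 labelled libraries), 30% caloric restriction (3), or chow with TM5614 at 20 mg/kg/day (3), rapamycin at 42 mg/kg/day (3) or metformin at 37.5 mg/kg/day (3). Rapamycin inhibits the kinase mTOR, metformin is a glucose-lowering biguanide, and TM5614 is an inhibitor of the protease inhibitor PAI-1. The livers had been flushed with buffered saline, and the labels give no sex, batch or hour of collection. The values are group means of normalized counts, log2 fold changes against the freely fed control and adjusted p-values, all from the authors' deposited table. No value per mouse could be tied to a label, so no SD is given, the spread between libraries enters through the adjusted p alone, and whether that spread is between mice or technical is not stated. All 4 comparisons share the same control mean, and the number of libraries behind it is not stated in the table.

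Hepatocytes make most plasma proteins, and each of these is threaded through the Sec61 channel while it is still being made. The signal peptidase then removes its signal peptide, COPII-coated vesicles carry it from the endoplasmic reticulum towards the Golgi, and COPI-coated vesicles return receptors and escaped residents. Cargo receptors such as the p24 proteins and the lectin Lman1 select what is loaded. When unfolded protein builds up in the lumen, the sensors Ern1, Eif2ak3 and Atf6 raise chaperones and many genes of this pathway through the factors XBP1, ATF4 and ATF6.

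The hepatocyte markers Alb, Ttr, Apoa1, Apob, Tat and Cps1 took 9.47% to 12.6% of the summed means in each group. Markers of pancreatic acinar cells, which are rich in secretory machinery, summed to 691 normalized counts in the control, against 37.4 with caloric restriction, 75.6 with TM5614, 66.4 with rapamycin and 97.5 with metformin. Of these 12 markers, 10 are listed at 0 under restriction, TM5614 and metformin and 9 under rapamycin, while none is at 0 in the control, where Amy2a5 has 183 and Cela1 145. No adjusted p is given for 10 of the 12 under restriction and TM5614, 11 under rapamycin and all 12 under metformin. Amy2a5 has none in any comparison. By the authors' DESeq2 test Cela1 (-2.10, adjusted p = 3.23e-07) and Cela2a (-4.45, adjusted p = 0.00305) fell under restriction. Cela2a also fell under TM5614 (-4.92, adjusted p = 0.00687) and Cela1 under rapamycin (-1.23, adjusted p = 0.0395). Cela1 did not pass under TM5614 (-0.99, adjusted p = 0.0772). How these counts are spread over the control libraries is not known. Kupffer cell markers summed to 1953 in the control, 955 under restriction and 1387 to 1551 with the 3 compounds. Within these sums Marco had 261 in the control, 32.0 under restriction and 27.3 to 44.5 with the compounds, without an adjusted p in any comparison. C1qa, C1qb, C1qc and Cd5l fell under restriction, while no Kupffer marker passed with a compound. The 8 sinusoidal endothelial markers summed to 1606 in the control, 1008 with rapamycin (Stab1 and Stab2 fell, all 8 log2 fold changes below 0), 1122 with metformin and 1456 to 1457 in the other groups. Stellate and fibroblast markers summed to 2166 in the control and 1694 with rapamycin, where Lum fell. The erythroid gene Alas2 fell under restriction (-2.34, adjusted p = 4.59e-28, in the authors' deposited table). Hba-a1 and Hba-a2, also erythroid, went the other way without passing (0.89 and 1.37, adjusted p = 0.853 and 0.684, by the authors' DESeq2 test). Plasma and B cell markers summed to 23.2 to 39.1 in all groups. The ribosomal RNA precursor Rn45s took 4.4% of all normalized counts under metformin and 0.132% to 0.555% in the other groups. The part of these differences in the results was not tested, and in whole tissue fewer cells of a type and less RNA per cell cannot be told apart.

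Under caloric restriction 12 of the 56 genes fell and 3 rose. The genes that fell code for parts of the channel, the signal peptidase, both coats, cargo receptors and a SNARE relative, and they fell by 0.37 to 0.81 (log2) in the authors' deposited table. Sec22c, Tmed5 and Sec23a rose. In the table as a whole 9.24% of the genes with an adjusted p were called lower under restriction and 9.74% higher. The median log2 fold change of the 56 was -0.08, against 0.01 over all genes. With group means set to equal sums without Rn45s it was -0.17. That scaling moved every gene alike by -0.10, so the distance between the 56 and all genes stayed the same. The lowest of the 5 group means was that under restriction for 29 genes (51.8%), against 30.3% of the 11201 genes averaging 10 or more.

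The 3 compounds gave few calls, each of them higher. Under TM5614 Sec24d and Sec31a rose, under rapamycin Sec23b and Sec24d, and under metformin Sec23b, and none of the 56 fell in these 3 comparisons by the authors' DESeq2 test, also at an adjusted p under 0.1 (unadjusted p-values were not used). Under metformin 3 weakly expressed genes, Sec31b, Sec61a2 and Tmed8, carry no adjusted p. Among all tested genes 2.01% were called higher and 1.95% lower under TM5614, 0.714% and 0.675% under rapamycin, and 0.163% and 0.0816% under metformin. Among the 56 genes 3.57% were called higher under TM5614 and under rapamycin, and 1.89% of those with an adjusted p under metformin. The TM5614 share and the absence of falls lie near the shares of all tested genes. The 5 calls are of only 3 genes, the COPII coat genes Sec23b, Sec24d and Sec31a, and all are against the same control mean. The log2 fold change was above 0 for 43 of the 56 genes under metformin and 42 under rapamycin, against 5819 and 5751 of the 11201 genes averaging 10 or more. For TM5614 it was above 0 for 30 genes, against 5485 of 11201. The medians over the 56 were 0.13 under metformin, 0.08 under rapamycin and 0.0062 under TM5614, against 0.0090, 0.0019 and -0.0098 over all genes. Metformin gave the highest of the 5 group means for 21 genes and rapamycin for 17 (37.5% and 30.4%, against 16.7% and 18.5% of all genes averaging 10 or more), while the control gave the highest mean for Lman2 and Ergic3.

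**Figure D1:**
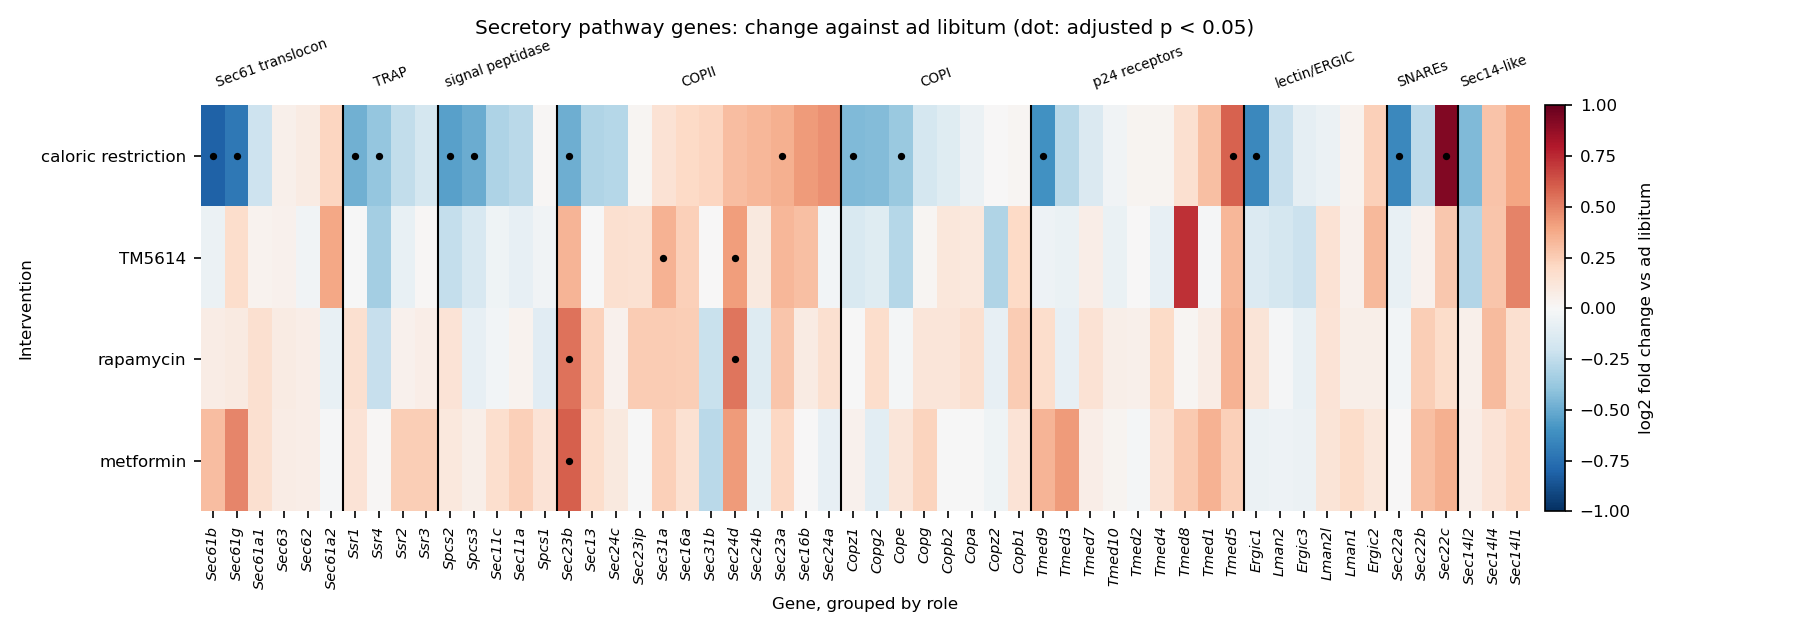
Log2 fold change against the freely fed control (colour, from -1 to 1) for the 56 genes, grouped by role on the horizontal axis, under each of the 4 interventions; a dot marks an adjusted p under 0.05 in the authors' deposited table. Caloric restriction has dots in 15 genes, while the 5 dots of the 3 compounds lie on Sec23b, Sec24d and Sec31a in the COPII block.

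The Sec61 translocon is a channel of the pore subunit Sec61a1 and the small tail-anchored subunits Sec61b and Sec61g, joined by Sec62 and Sec63. Both small subunits fell under caloric restriction and the pore did not pass. Sec61b (chr4:47474658-47483242, plus strand, GRCm38) had 346 normalized counts in the control, 198 under restriction, 332 with TM5614, 365 with rapamycin and 428 with metformin, by the authors' deposited table. Its log2 fold change under restriction was -0.81 (adjusted p = 1.33e-04), the largest fall of the 56 genes. Sec61g (chr11:16500530-16508484, minus strand) had means of 214, 131, 242, 227 and 301 in the same order, and -0.71 under restriction (adjusted p = 0.00327). Both were lowest under restriction and highest under metformin, where neither passed (0.31, adjusted p = 0.849 for Sec61b and 0.49, adjusted p = 0.492 for Sec61g, by the authors' deposited table). The pore Sec61a1 had 1427 in the control and 1234 under restriction (-0.21, adjusted p = 0.144). Sec62 and Sec63, which serve chains that enter after synthesis, moved by at most 0.09 in any comparison, and the second pore gene Sec61a2 was weakly expressed at 26.1 to 35.8. Sec61a1, Sec61a2, Sec62 and Sec63 share 549, 909, 509 and 173 exon bases with genes on the opposite strand, so the division of their reads is uncertain. Per kb of merged exon, Sec61b was the highest of the 6 with 592 normalized counts over the 5 groups.

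The translocon-associated protein complex (TRAP), made of Ssr1 to Ssr4, sits beside the channel and helps chains with weak signals to enter. Under caloric restriction Ssr1 and Ssr4 fell and all 4 log2 fold changes were below 0, from -0.48 to -0.17. Ssr1, the alpha subunit, had 991 normalized counts in the control, 712 under restriction, 988 with TM5614, 1107 with rapamycin and 1090 with metformin (-0.48 under restriction, adjusted p = 3.05e-04, by the authors' deposited table). Ssr4, the delta subunit, had 563, 430, 446, 480 and 569 in that order (-0.39 under restriction, adjusted p = 0.0385). For Ssr4 the means under TM5614 and rapamycin also lay below the control, without passing (-0.34, adjusted p = 0.171 and -0.23, adjusted p = 0.575 in the authors' deposited table). Ssr4 had the highest level per kb of merged exon of the 4 (620), while per kb of the longest coding transcript Ssr3 was higher (766 against 622).

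The signal peptidase has a catalytic subunit, Sec11a or Sec11c, and the accessory subunits Spcs1 to Spcs3. Under caloric restriction Spcs2 and Spcs3 fell, and neither catalytic subunit passed. Spcs2 had 847 normalized counts in the control, 581 under restriction, 717 with TM5614, 934 with rapamycin and 909 with metformin (-0.54 under restriction, adjusted p = 6.37e-06, by the authors' deposited table). A pseudogene named after Spcs2 exists, so the division of its reads is uncertain. Spcs3 had 673, 477, 603, 635 and 699 in that order (-0.50 under restriction, adjusted p = 1.70e-04). Sec11a (-0.27, adjusted p = 0.167) and Sec11c (-0.31, adjusted p = 0.290) missed the threshold in the authors' deposited table. Spcs1, the highest of the 5 per kb (290 over the groups), was nearly level at 374 in the control and 378 under restriction. It shares 252 exon bases with Glt8d1 on the opposite strand. The summed mean of the complex under restriction was 0.772 times the control, the lowest such ratio of the 9 role groups.

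The COPII coat and its scaffold, with 12 genes the largest of the role groups, had called genes in each of the 4 interventions. Under restriction 8.33% of them were called higher and 8.33% lower, close to the 9.74% and 9.24% of all tested genes. Its inner layer pairs Sec23 with the cargo-binding Sec24, its outer layer is Sec13 with Sec31, and Sec16 marks the exit sites. Sec23b, one of the 2 Sec23 genes, fell under caloric restriction and rose under rapamycin and metformin. Sec23b (chr2:144556229-144590749, plus strand) had 323 normalized counts in the control, 230 under restriction, 409 with TM5614, 469 with rapamycin and 488 with metformin, from the authors' deposited table. Its log2 fold changes were -0.49 (adjusted p = 0.0134) under restriction, 0.54 (adjusted p = 0.0355) under rapamycin, 0.60 (adjusted p = 0.0367) under metformin and 0.34 (adjusted p = 0.194) under TM5614. Restriction stood lowest and metformin highest, a 2.12-fold range between these means, and the difference between interventions was not tested.

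Its paralog Sec23a rose under restriction. Sec23a had 665 normalized counts in the control, 851 under restriction, 838 with TM5614, 807 with rapamycin and 768 with metformin (0.36 under restriction, adjusted p = 0.0167, by the authors' deposited table). The control was the lowest of its 5 means. The ratio of the Sec23a mean to the Sec23b mean was 2.06 in the control, 3.69 under restriction, 2.05 with TM5614, 1.72 with rapamycin and 1.57 with metformin. Sec23a shares 66 exon bases with an antisense gene, Gm17529, and without a stated strand setting reads of the pair cannot be told apart.

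Sec24d rose under TM5614 and rapamycin. Sec24d (chr3:123267455-123365641, plus strand) had 593 normalized counts in the control, 735 under restriction, 794 with TM5614, 861 with rapamycin and 796 with metformin by the authors' deposited table, so that every treated mean lay above the control. Its log2 fold changes were 0.42 (adjusted p = 0.0342) under TM5614, 0.54 (adjusted p = 0.00756) under rapamycin, 0.42 (adjusted p = 0.150) under metformin and 0.31 (adjusted p = 0.0721) under restriction. Sec31a, of the outer layer, had 829, 918, 1056, 990 and 979 in the same order and rose under TM5614 (0.35, adjusted p = 0.0222, by the authors' deposited table). The other Sec24 genes did not pass: Sec24a went from 857 to 1174 under restriction (0.46, adjusted p = 0.0540), beside Sec24b at 0.33 and Sec24c at -0.28 in the authors' deposited table. Sec16a (0.20) and Sec16b (0.43, adjusted p = 0.0931) did not pass either, nor did Sec13, the highest of the COPII genes per kb (250 over the groups), at -0.30, adjusted p = 0.118. As a sum, the 12 COPII means were 1.13 times the control under restriction, 1.17 with TM5614, 1.18 with rapamycin and 1.12 with metformin.

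**Figure D2:**
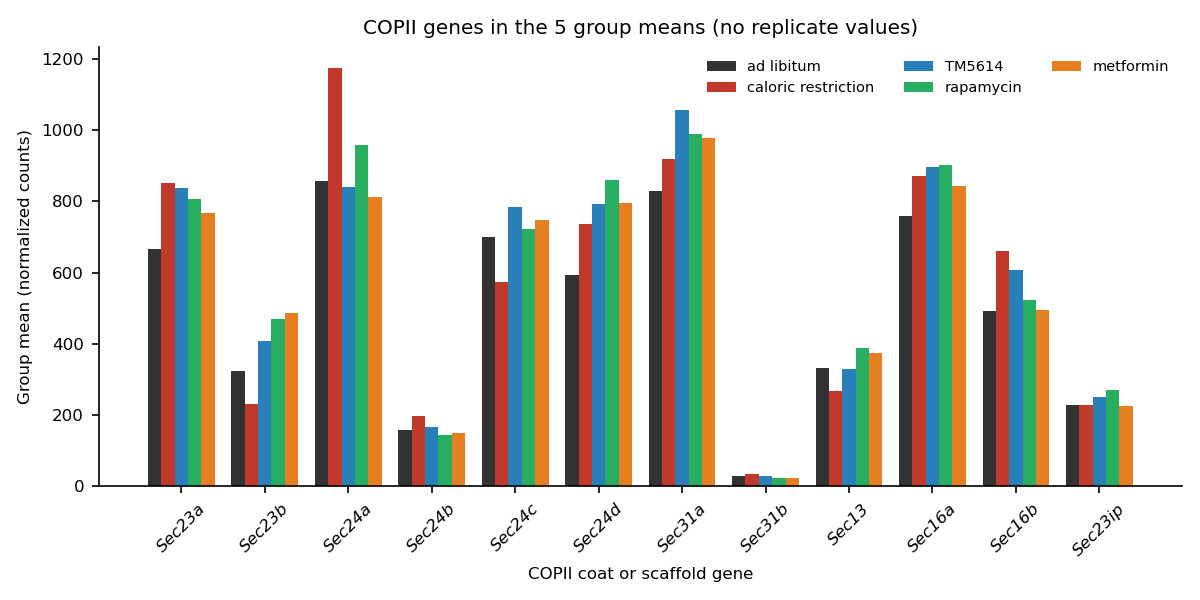
Group means (normalized counts, bars from 0) of the 12 COPII coat and scaffold genes in the 5 groups; the table gives no replicate values, so there are no error bars. Sec23b is lowest under caloric restriction (230) and highest under metformin (488), while Sec23a is lowest in the control (665).

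Promoters of the coat genes are shown because the unfolded protein response element TGACGTGG, a sequence bound by XBP1 and ATF6, occurs in those of Sec23a and Sec24d. RefSeq promoters, from 250 bases before to 50 after the start, were matched for 48 of the 56 genes. TGACGTGG was found on either strand in 5 of the 48 (10.4%), against 0.714% of 27025 genes and 0.938% of the 8099 table genes that average 10 or more and have a promoter. These 5 are Sec23a, Sec24d, Sec16b, Copb1 and Copb2. The lines below run 5′ to 3′ on the gene's strand from 60 bases before the start to 15 after it, on GRCm38.p6, with the element or its reverse complement CCACGTCA in capitals, and Sec23b is given as the paralog with no match at either RefSeq start.
Sec24d, chr3:123267436-123267510, plus strand: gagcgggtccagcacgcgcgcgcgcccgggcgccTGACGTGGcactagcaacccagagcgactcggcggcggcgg
Sec23a, chr12:59012003-59012077, minus strand: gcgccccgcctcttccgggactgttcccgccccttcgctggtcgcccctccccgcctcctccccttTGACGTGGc
Sec16b, chr1:157506736-157506810, plus strand: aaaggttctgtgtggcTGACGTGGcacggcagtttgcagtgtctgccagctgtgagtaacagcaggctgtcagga
Copb1, chr7:114254666-114254740, minus strand: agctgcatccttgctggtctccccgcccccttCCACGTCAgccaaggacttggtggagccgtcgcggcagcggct
Copb2, chr9:98563671-98563745, plus strand: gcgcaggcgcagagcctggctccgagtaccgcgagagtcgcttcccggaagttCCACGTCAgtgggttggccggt
Sec23b, chr2:144556169-144556243, plus strand: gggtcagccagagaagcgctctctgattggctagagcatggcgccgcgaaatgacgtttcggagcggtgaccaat
Sec23b, chr2:144564839-144564913, plus strand: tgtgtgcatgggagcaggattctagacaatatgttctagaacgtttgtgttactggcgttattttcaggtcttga

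The element begins 44 bases before the RefSeq start in Sec16b, 28 before it in Copb1, 26 in Sec24d and 7 in Copb2, and at base 7 of the transcript in Sec23a. GENCODE, the source of the gene positions above, starts Sec16b, Copb1, Sec24d and Copb2 further upstream. By its bounds the element lies within these genes. Of the 5 genes, Sec23a and Sec24d were called in 1 or more interventions and Sec16b, Copb1 and Copb2 in none. Copb1 had 787 normalized counts in the control and 797, 906, 939 and 868 under restriction, TM5614, rapamycin and metformin, and Copb2 had 1018 and then 937, 1101, 1109 and 1015 in the authors' deposited table. The longer elements ERSE (CCAAT and CCACG with a fixed spacer between them) and ERSE-II (ATTGG, any base, CCACG), which ATF6 binds, were found in none of the 48 windows on either strand, against 0.137% and 0.0444% of all genes. Their shared core CCACG, which also lies within TGACGTGG read on the other strand, was in 33 of the 48 (68.8%), against 35.5% of all genes and 52.3% of the table genes averaging 10 or more. A match describes letters in these windows and shows neither binding nor a cause.

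The COPI coat is built of subunits that include Copa, Copb1, Copb2, Cope, Copg and Copz. Its subunit Arcn1 does not match the names used here and is counted below with the COPI partners. The small subunits Cope and Copz1 fell under caloric restriction, and the larger ones did not pass. Copz1 (zeta) had 1127 normalized counts in the control, 828 under restriction, 1017 with TM5614, 1122 with rapamycin and 1160 with metformin (-0.45 under restriction, adjusted p = 1.28e-05, by the authors' deposited table). Cope (epsilon), the highest of the 8 per kb (536 over the groups), had 747, 578, 613, 735 and 812 in the same order (-0.37 under restriction, adjusted p = 0.0315). Restriction was the lowest mean for both. The log2 fold changes under restriction of Copa, Copb1, Copb2 and Copg1, listed as Copg, lay between -0.17 and 0.02 in the authors' deposited table. The paralogs Copg2 (-0.43, adjusted p = 0.309) and Copz2 (0.0051) were expressed at 83.4 to 128 normalized counts and did not pass.

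The p24 family (Tmed genes) forms receptors that link cargo in the lumen to the coats outside. Under caloric restriction Tmed9 fell and Tmed5 rose. Tmed9 had 567 normalized counts in the control, 373 under restriction, 547 with TM5614, 639 with rapamycin and 719 with metformin (-0.61 under restriction, adjusted p = 0.00356, by the authors' deposited table). Tmed5 had 970, 1459, 1221, 1235 and 1146 in that order (0.59 under restriction, adjusted p = 0.00739). Its control mean was the lowest of the 5, and Tmed5 shares 395 exon bases with Mtf2 on the opposite strand. Tmed2, the highest of the family per kb (975 over the groups), ranged from 1980 to 2079 and had the narrowest span of the 56 genes, 1.05-fold between its lowest and highest mean. Tmed10 spanned 1.09-fold. Tmed3 under metformin (0.42 with an adjusted p of 0.770) missed the threshold in the authors' deposited table, and Tmed8, with a mean of 33.5, reached 0.73 under TM5614 without passing (adjusted p = 0.117).

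Among the lectins and the proteins of the compartment between endoplasmic reticulum and Golgi, Ergic1 fell under caloric restriction. Ergic1 (chr17:26561489-26656934, plus strand) had 578 normalized counts in the control, 370 under restriction, 525 with TM5614, 632 with rapamycin and 555 with metformin (-0.64 under restriction, adjusted p = 1.37e-07, by the authors' deposited table), the smallest adjusted p of the 56 genes. Its partners Ergic2 (0.24, adjusted p = 0.145) and Ergic3 (-0.09, adjusted p = 0.620) did not pass under restriction. Lman1, the receptor for coagulation factors V and VIII, had 1756, 1799, 1808, 1832 and 1993 in the same order and passed nowhere. Lman2 had 1800 in the control and 1532 under restriction (-0.23, adjusted p = 0.203, by the authors' deposited table). The 2 lectins had the same level per kb of merged exon, 391 over the groups.

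Sec22 genes encode membrane fusion proteins of the SNARE type or their relatives. Sec22c rose and Sec22a fell under caloric restriction. Sec22c (chr9:121680045-121705490, minus strand) had 84.8 normalized counts in the control, 161 under restriction, 102 with TM5614, 96.1 with rapamycin and 109 with metformin (0.93 under restriction, adjusted p = 0.0142, by the authors' deposited table), the largest change of the 56 genes. Sec22a had 104, 66.8, 99.1, 102 and 105 in that order (-0.64 under restriction, adjusted p = 0.0261). The ratio of the Sec22c mean to the Sec22a mean was 2.41 under restriction and 0.813 to 1.03 in the other 4 groups. Sec22b, the best known fusion protein between endoplasmic reticulum and Golgi and the highest of the 3 per kb (99.8 over the groups), went from 350 to 292 under restriction (-0.26, adjusted p = 0.0852).

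**Figure D3:**
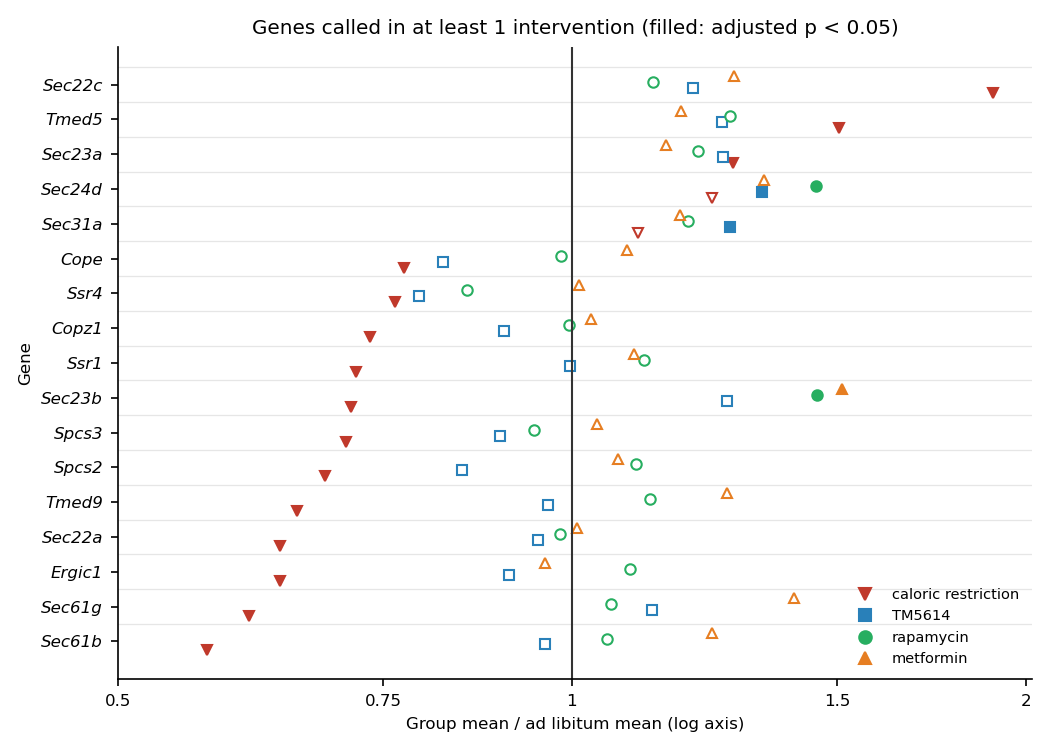
Group mean divided by the control mean (log axis, 1 is the control) for the 17 genes called in at least 1 intervention, with filled symbols where the adjusted p is under 0.05 in the authors' deposited table. The filled downward triangles of caloric restriction reach from Sec61b (198 against 346 normalized counts) to Sec22c (161 against 84.8), and Sec23b has filled symbols on both sides of 1.

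The Sec14-like genes Sec14l1, Sec14l2 and Sec14l4 match by name and encode lipid transfer proteins outside the pathway. None of them passed in any comparison. Sec14l2, a tocopherol-binding protein with the highest level per kb of all 56 (1356 over the groups), went from 3848 normalized counts in the control to 2837 under restriction (-0.44, adjusted p = 0.0536, by the authors' deposited table). Sec14l1 under TM5614 (0.50, adjusted p = 0.168) and Sec14l4 under rapamycin (0.32, adjusted p = 0.539) were among the largest changes that missed the threshold in the authors' deposited table.

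The 56 genes were also divided by merged exon length, which can exceed that of any 1 transcript. Under restriction 3 of the 11 genes with under 1500 merged exon bases fell, as did 4 of the 12 with 1500 to 3000 bases. Of the 25 with 3000 to 5000 bases 4 fell and Sec23a rose. Of the 8 above 5000 bases Ssr1 fell while Tmed5 and Sec22c rose. Over all genes averaging 50 or more, 13.6%, 13.7%, 9.23% and 7.24% of these bins were called lower and 5.05%, 12.2%, 12.5% and 15.4% higher. Among the 56 genes the median log2 fold changes of these bins under restriction were -0.28, -0.21, -0.06 and 0.27. Over the 7853 genes that average 50 or more and have a length the medians were -0.03, -0.0099, 0.04 and 0.11. Spearman's rho of length and log2 fold change was 0.47 over the 56 genes and 0.13 over the 7853 under restriction, 0.53 and 0.33 under TM5614, 0.36 and 0.10 under rapamycin, and -0.10 and -0.08 under metformin, given as descriptions across genes that share their libraries. The part of length in the falls was not tested.

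**Figure D4:**
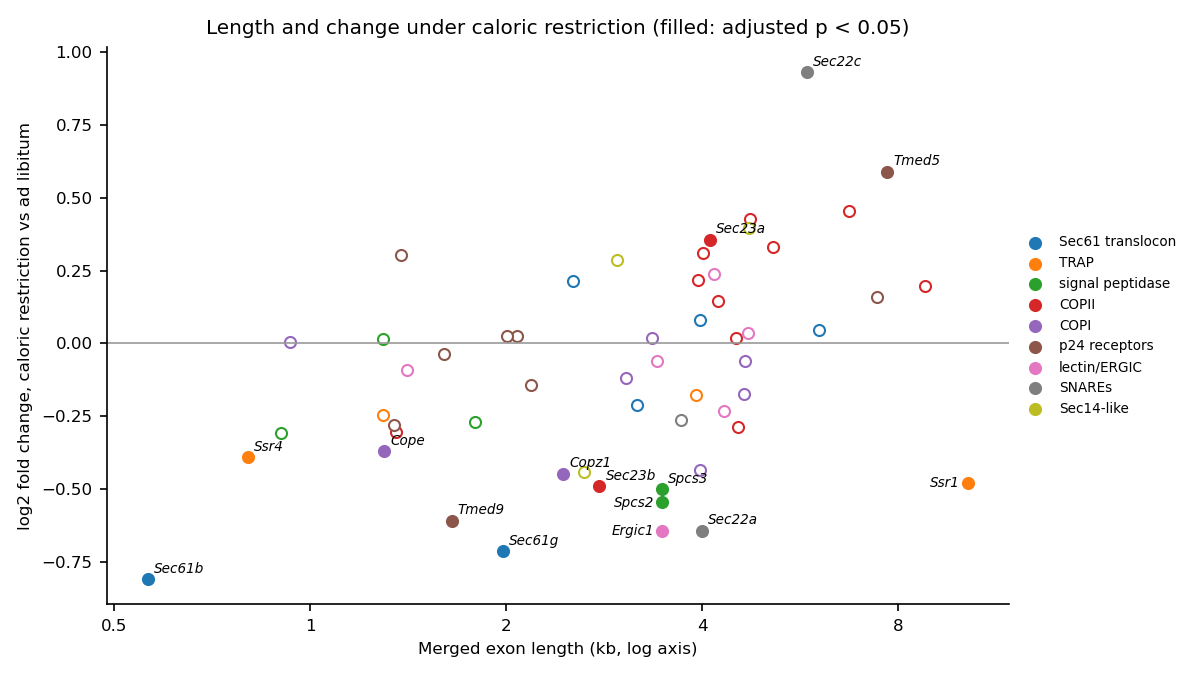
Merged exon length (kb, log axis) against the log2 fold change under caloric restriction for the 56 genes, coloured by role and filled where the adjusted p is under 0.05 in the authors' deposited table. The falls reach from Sec61b, the shortest gene, to Ssr1, the longest, and the 3 rises lie at 4.11 kb (Sec23a), 5.78 kb (Sec22c) and 7.69 kb (Tmed5).

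Neighbouring steps of the pathway were read from lists of other genes, whose counts under restriction stand against 9.74% of all tested genes called higher and 9.24% lower. For lists of about 10 genes, counts of 0 or 1 lie near these shares. Oligosaccharyltransferase, which attaches glycans at the translocon, had 7 of 11 genes lower and none higher under caloric restriction, with a median log2 fold change of -0.42. Its ribophorin Rpn1 went from 1148 to 745 normalized counts (-0.62, adjusted p = 3.02e-08), and Ostc and Krtcap2 had -0.61 each in the authors' deposited table. The other 3 interventions called none of the 11. None of the 10 genes of the signal recognition particle and its receptor, which bring ribosomes to the channel, passed in any intervention, Srprb having -0.22 under restriction in the authors' deposited table. Of 6 further translocation and insertion genes Tram1 fell under restriction and Hspa13 rose under rapamycin (0.54, adjusted p = 0.0211).

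Of 11 COPII partners, Sar1b, the GTPase that starts the coat, rose under caloric restriction (0.41, adjusted p = 2.02e-04), as did the large-cargo receptor Mia3 (0.53, adjusted p = 2.50e-04), and Uso1, a tether, rose under rapamycin in the authors' deposited table. Of 9 COPI partners 3 fell under restriction, Arf5 (-0.49, adjusted p = 0.00316), Gbf1 (-0.63) and Arfgap2, and Arf5 also fell under TM5614 (-0.49, adjusted p = 0.0147). Of 12 fusion genes 3 fell under restriction: Bet1 (-0.88, adjusted p = 4.73e-13), Bnip1 (-0.89) and Scfd1 (-0.57). Bet1 rose under rapamycin (0.39, adjusted p = 0.0281, by the authors' deposited table), from 527 in the control to 691. None of 11 retrieval and cargo receptor genes passed in any intervention, Kdelr2 having 0.42, adjusted p = 0.0637, under restriction.

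Among 30 regulators and chaperones of the unfolded protein response, 7 fell and 4 rose under caloric restriction (24.1% and 13.8% of the 29 with an adjusted p, against 9.24% and 9.74% of all tested genes). The 4 that rose were the sensors Atf6 and Eif2ak3, the factor Creb3l3 and the cochaperone Dnajb9, and the 7 that fell were lumenal chaperones and folding factors, among them Sdf2l1 (-2.51), Manf (-0.79) and Hyou1 (-0.63) in the authors' deposited table. Ddit3, which carries no adjusted p, went from 35.9 in the control to 134 under restriction (1.90). Hyou1 had 1134 normalized counts in the control, 732 under restriction, 1692 with TM5614, 1922 with rapamycin and 2233 with metformin by the authors' deposited table. It fell under restriction (adjusted p = 0.0180) and rose under rapamycin (0.76, adjusted p = 0.0293) and metformin (0.98, adjusted p = 0.00304). Under metformin Manf (1.09, adjusted p = 0.00114), Hspa5 and Creld2 rose as well, so that 4 of the 27 with an adjusted p rose, against 0.163% of all tested genes. Xbp1 rose under TM5614, from 1558 to 2912 (0.90, adjusted p = 0.0441, by the authors' deposited table).

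Of 20 secreted hepatocyte proteins, the cargo of the pathway, 6 rose and 3 fell under caloric restriction, with none called under the other 3 interventions. Complement C3 went from 48095 to 88998 normalized counts (0.89, adjusted p = 4.67e-10) and the retinol carrier Rbp4 had 0.74 in the authors' deposited table. The 3 that fell were Fga (-0.48), Fgg (-0.48) and Ttr (-0.34). The median log2 fold change of the 20 under restriction was 0.10, with 12 above 0 and 8 below. Their summed means were 1.24 times the control, and 1.10 times without Alb, a setting chosen after seeing the data. Alb itself had 606485 normalized counts in the control and 858112 with restriction by the authors' deposited table. The 56 translocon and coat genes summed to 0.943 times the control. The 56 took 0.526% of the summed means in the control, 0.463% under restriction, 0.534% with TM5614, 0.560% with rapamycin and 0.535% with metformin. With Rn45s left out of the sums these shares were 0.527%, 0.465%, 0.535%, 0.564% and 0.559% in the same order. Alb stayed in these sums, so the shares depend on its level as well as on that of the 56 genes.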

How the data were processed

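RNA of whole mouse livers was sequenced from poly(A)-selected libraries, per the labels' protocols, and aligned with HISAT2 2.0.5 to mm10, per the submitters' processing notes. Which counter, strand setting and annotation followed is not stated in the labels. The authors' deposited table holds, per the file headers, a normalized signal for each group, the mean of gene counts divided by DESeq2 size factors by the authors as its name and values show. It also holds the authors' adjusted p-value and log2 fold change of each intervention against the control. The 18 columns of another table match no label and were not used, so tests on values per library gave way to the authors' adjusted p, without any SD. Unadjusted p-values and library depths were not used here.

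Members were taken by name from the table (Python 3.11.15, pandas 2.3.3), and the older symbol Copg was read as Copg1. Members, roles and lists were chosen with earlier results of these data known. A gene was called at an adjusted p under 0.05. Named are all called members and the highest member per kb of each role. Also named are the 2 largest uncalled changes of each comparison among members with a mean of at least 50. Up to 3 genes of each further pathway list were named by rule, and some other called genes of these lists were added. Positions and merged exon lengths are from GENCODE vM21 (GRCm38, the assembly also named mm10), basic set; promoters are RefSeq's on GRCm38.p6. Counting and motif search were tested on simulated data. Thresholds, level filters, scalings and membership were varied.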

Additional observations from a re-analysis of the deposited data

How the results depend on the processing

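The scalings tried moved all genes alike by -0.10 (log2) at most, less than any called change, so they do not test the direction of the calls. The 12 falls under caloric restriction became 8 at an adjusted p under 0.01, where Cope, Sec22a, Sec23b and Ssr4 were lost, and 14 under 0.1. Of the 12, 6 were of 0.5 or more in log2. The 3 rises became 1 at an adjusted p under 0.01 and 6 under 0.1, and 1 without members that share exon bases with another gene or have a named pseudogene, an alternative chosen after seeing the data; Sec23a and Tmed5 are left out there. The median log2 fold change under restriction was -0.17 with group means set to equal sums without Rn45s. For TM5614 the 2 rises became 0 at an adjusted p under 0.01, 4 under 0.1 and 0 with a change of at least 0.5. Rapamycin kept 1 of 2 rises at 0.01 and metformin 0 of 1. The TM5614 median of 0.0062 lay between 0.0044 and 0.0159 under the alternatives. No paired analysis was possible because the columns with values per library match no label. For the same reason no replicate was left out, and no edgeR or limma fit was run. How many libraries stand behind each mean is not stated: the smallest control means above 0 (0.315 to 0.350) resemble those of groups with 3 libraries (0.299 to 0.398).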
